A study of Homo sapiens with 10 samples.

Results

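ABC transporters are membrane pumps that use ATP to move drugs, conjugates, lipids, sterols, peptides and cofactors across membranes. The genes described here are those whose annotated symbol starts with ABCA, ABCB, ABCC, ABCD or ABCG followed by a digit, which gave 40 genes of the 19775 measured. Each gene was read through the probe set (a group of short probes for a transcript) with the highest mean over the 10 arrays, out of 89 probe sets that were annotated to 1 of these genes only. Of the 40 genes, 25 reached a log2 level of 5 on at least 2 arrays and were tested, and 15 did not. The rule keeps 3 transcribed pseudogenes, ABCA11P, ABCA17P and ABCC13.

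The arrays measured total RNA of MDA-MB-231, an established human breast cancer line, in 5 lines with 2 arrays each. Cells of tumours T2 and T3 carry the label resistant to SM-164, and those of T6 and T8 the label sensitive. All 4 were MDA-MB-231 xenografts in SCID mice, dosed with SM-164 into a vein (5 mg/kg, 5 days weekly, 2 weeks), and cells were isolated from the tumours after they regrew. The parental cells, also labelled sensitive, were kept in standard culture. SM-164 is a Smac mimetic, a small molecule that antagonises the IAP inhibitors of cell death. SCID mice lack functional T and B cells but keep other host cells such as macrophages, endothelium and fibroblasts. No xenograft without SM-164 was analysed here, so growth in the mouse, regrowth and the drug cannot be told apart in a tumour set against parental cells. The arrays of a line are not said to come from separate cultures, so a p-value reflects array-to-array spread alone and that spread may be technical.

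In breast and other cancers, ABCB1 (P-glycoprotein), ABCC1 (MRP1) and ABCG2 (breast cancer resistance protein) are known for pumping chemically unlike drugs out of cells. Other members export cholesterol and phospholipid (ABCA1, ABCG1), serve mitochondria and haem synthesis (ABCB6, ABCB10), carry peptides into lysosomes (ABCB9), or move fatty acids and cobalamin in peroxisomes and lysosomes (ABCD3, ABCD4).

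On the probe sets used, ABCG2, ABCA1 and ABCC5 were the members called both between T2 and T3 and between T6 and T8. For that reason the 250 bases before the outermost annotated start of each are shown. The sequences are those of RefSeq on GRCh38.p14, read 5′ to 3′ on the minus strand of each gene, and capitals mark matches to a searched motif. The ABCG2 window lies at chr4:88231627-88231876, the ABCA1 window at chr9:104928156-104928405 and the ABCC5 window at chr3:184017885-184018134.
ABCG2: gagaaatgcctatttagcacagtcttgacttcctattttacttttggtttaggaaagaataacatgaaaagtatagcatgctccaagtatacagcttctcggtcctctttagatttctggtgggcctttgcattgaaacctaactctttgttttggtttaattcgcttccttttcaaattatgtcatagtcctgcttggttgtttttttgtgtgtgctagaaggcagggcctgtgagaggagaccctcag
ABCA1: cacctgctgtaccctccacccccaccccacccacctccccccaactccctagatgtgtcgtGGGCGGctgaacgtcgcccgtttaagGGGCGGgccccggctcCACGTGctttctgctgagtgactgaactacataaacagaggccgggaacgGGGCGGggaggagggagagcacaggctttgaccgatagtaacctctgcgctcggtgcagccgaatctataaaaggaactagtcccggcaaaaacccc
ABCC5: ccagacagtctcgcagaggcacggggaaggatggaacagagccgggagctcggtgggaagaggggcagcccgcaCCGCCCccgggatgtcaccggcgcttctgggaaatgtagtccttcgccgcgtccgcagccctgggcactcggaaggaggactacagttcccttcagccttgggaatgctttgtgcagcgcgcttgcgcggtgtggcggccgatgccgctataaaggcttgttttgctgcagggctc
The 5 motifs searched on both strands were the GC box (GGGCGG), the E-box (CACGTG), the AP-1 site (TGANTCA), the CCAAT box (CCAAT) and the core of the antioxidant response element (TGACNNNGC). The ABCA1 window held 3 GC boxes and 1 E-box and the ABCC5 window 1 GC box on the opposite strand, while none of these motifs occurred in the ABCG2 window. Only the window before the outermost annotated base of each gene was searched. The letters before any start further inside a gene, such as ABCG2, are not described. GC boxes occurred in 42.6% of 35116 human windows of this length, E-boxes in 6.34%, AP-1 sites in 6.57%, CCAAT boxes in 32% and the antioxidant core in 10.9%. Of the 29 members with a window, 15 held a GC box, 3 an E-box, 1 an AP-1 site, 5 a CCAAT box and 5 the antioxidant core. A match is a description of the letters and not a binding site.

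Over all genes the correlation was 0.996 to 0.998 between both arrays of any line and 0.972 to 0.995 between lines. Between 23 and 26 members reached log2 5 on an array. All 6 genes known to be abundant in MDA-MB-231 lay between 10.6 and 14.4 in every line; of 5 listed as absent from the line, PGR did not reach the level needed for testing, but GATA3 (7.69 to 8.82), ERBB2 (8.83 to 9.26) and ESR1 (6.56 to 6.71) gave signal on their probe sets. Genes used as markers of host cell types were read next. The host is a mouse and the probe sets are annotated to human genes, so the sums below cannot gauge host cells. How far mouse RNA binds these probes was not tested. LAPTM5 (10.66) and ROBO4 (9.21) were already high in cultured parental cells and weigh on the sums. The summed log2 level of 7 macrophage markers was 40.2 to 41.2 in the tumours and 42.5 in parental cells. Of the 5 tested, 3 were lower in the tumours, in a comparison where 16.8% of all tested genes were lower and 25.5% higher. PTPRC and CD163 were below the level needed for testing. Of the 3 lower ones, ITGAM and CSF1R lay around the filter in the tumours. ITGAM was at 4.90 in T2 and 4.52 in T8, against 5.18 in parental cells. CSF1R was at 5.12 in T2, 5.02 in T3, 4.87 in T6 and 4.90 in T8, against 5.66 in parental cells. The sum of 7 endothelial markers was 42.1 to 45.8 in the tumours, highest in T8, and 40.6 in parental cells. Of these 7, 5 were called higher in the tumours, against 25.5% of all tested genes. Of the 5, CDH5 (3.55 in T2, 3.35 in T3, 4.27 in T6, 5.16 in T8; 3.59 in parental cells) and TIE1 (5.51 in T8; 4.46 in parental cells) met the filter through tumour arrays in which they were high, and CDH5 was not above parental cells in T2 or T3. The sum of 7 fibroblast and pericyte markers was 41.4 to 42.4 in the tumours and 42.2 in parental cells, with LUM and COL3A1 below that level. The part of other cells in the results below was not tested, and in these bulk samples fewer cells of a type and less RNA per cell cannot be told apart.

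**Figure D1:**
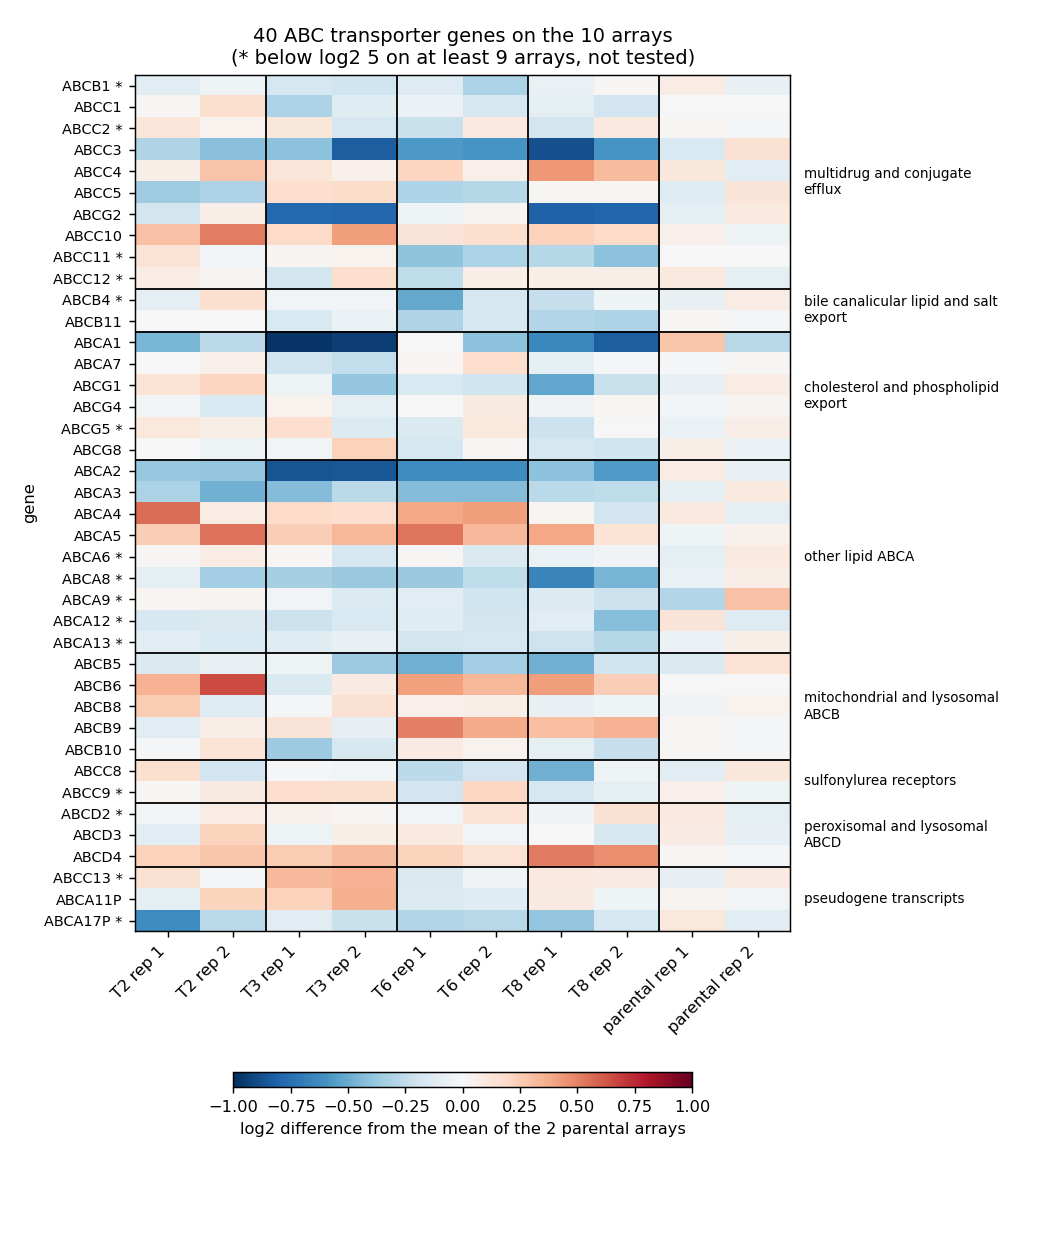
Colours give the log2 difference of each of the 40 genes on each of the 10 arrays (columns) from the mean of the 2 parental arrays, with genes grouped by role (rows) and an asterisk on the 15 genes that were not tested. ABCG2 is low in T3 and T8, at levels of 7.25 to 7.28, and ABCC3 and ABCA2 are lower than parental cells in every tumour. The roles come from lists, and that of ABCB5, drawn with the mitochondrial and lysosomal genes, was not examined.

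Relative to parental cells, the 4 tumours together had lower ABCA2, ABCC3, ABCA1, ABCG2 and ABCA3 and higher ABCA5, ABCD4, ABCB6 and ABCC10. That is 9 of the 25 tested members, 4 higher and 5 lower, at an adjusted p under 0.05 over all genes, where 42.3% of the 14929 tested genes passed, 25.5% higher and 16.8% lower. The share of members called, 36%, was thus near that of all genes. The median difference of the members was -0.05 on the log2 scale, against 0.00 over all tested genes, and the median size of the difference was 0.190, against 0.177. Set singly against the same parental arrays, T2 had 7 members called, 4 higher and 3 lower (33.0% of all genes, 17.5% higher and 15.5% lower). T3 had 8, 2 higher and 6 lower (37.9%, 22.1% higher and 15.8% lower). T6 had 9, 4 higher and 5 lower (34.5%, 20.7% higher and 13.7% lower). T8 had 8, 4 higher and 4 lower (43.8%, 28.7% higher and 15.1% lower). Without parental replicate 2, which leaves 1 parental array, fewer members were called in the 4 tumours together. Fewer of all genes were called in that fit too, so the drop cannot be read as one of the members.

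Among the genes that export drugs and conjugates, ABCG2 (chromosome 4, 88090264 to 88231626) separated the tumours into high and low pairs. Its log2 level was 7.87 and 8.12 in T2, 7.28 and 7.27 in T3, 8.02 and 8.09 in T6, 7.25 and 7.27 in T8, and 7.96 and 8.16 in parental cells. T3 and T8 were low and did not overlap the other lines, while T2 and T6 lay in the range of, or just below, the parental arrays. In T3 the level was 0.582 times that of parental cells (log2 difference -0.78 ± 0.11, SE, adjusted p = 3.7e-05), and in T8 it was 0.575 times (-0.80 ± 0.11, adjusted p = 3.1e-05). The differences of T2 (-0.06 ± 0.11) and T6 (-0.00 ± 0.11) from parental cells did not pass the test.

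ABCC3 (MRP3, an exporter of glucuronide and other organic anion conjugates) was lower in the tumours. Its level was 7.41 and 7.29 in T2, 7.29 and 6.88 in T3, 7.13 and 7.12 in T6, 6.83 and 7.11 in T8, and 7.55 and 7.86 in parental cells. No tumour array reached the lower parental array, and the mean difference was -0.57 ± 0.11 (adjusted p = 0.000974). All 5 of its probe sets were lower in the tumours, by differences of -0.42 to -1.29. Taken singly, T3, T6 and T8 passed the test, and T2, at -0.36 ± 0.15, had an adjusted p of 0.076.

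ABCC10 (MRP7, which is known to transport taxanes) was higher, with levels of 8.56 and 8.78 in T2, 8.46 and 8.69 in T3, 8.40 and 8.43 in T6, 8.50 and 8.46 in T8, and 8.32 and 8.22 in parental cells. Every tumour array exceeded both parental arrays (0.27 ± 0.08, adjusted p = 0.0131), and its other probe set moved the same way (0.32). The call was lost without parental replicate 2, at a difference of 0.22.

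ABCC4 (MRP4, an exporter of cyclic nucleotides) had levels of 9.03 and 9.26 in T2, 9.09 and 9.03 in T3, 9.19 and 9.02 in T6, 9.41 and 9.29 in T8, and 9.08 and 8.86 in parental cells. The tumours together and parental cells overlapped, and the difference of 0.19 ± 0.08 did not pass (adjusted p = 0.0638), although T8 alone did (0.38 ± 0.10, adjusted p = 0.00719). ABCC1, the exporter of glutathione conjugates and leukotrienes, had levels of 9.69 and 9.84 in T2, 9.37 and 9.56 in T3, 9.62 and 9.51 in T6, 9.58 and 9.48 in T8, and 9.68 and 9.67 in parental cells. The tumours lay on both sides of the parental arrays, at a mean difference of -0.10 ± 0.07 (95% interval -0.24 to 0.04). ABCC5 (MRP5, an exporter of cyclic nucleotides) differed by -0.11 ± 0.07 (adjusted p = 0.258) and is described with the pairs of tumours below.

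ABCB1, the P-glycoprotein gene, was at 3.85 and 3.91 in T2, 3.78 and 3.76 in T3, 3.82 and 3.63 in T6, 3.89 and 3.96 in T8, and 4.03 and 3.88 in parental cells. ABCC2, the canalicular conjugate exporter MRP2, was at 4.43 and 4.35 in T2, 4.43 and 4.15 in T3, 4.09 and 4.41 in T6, 4.13 and 4.41 in T8, and 4.33 and 4.29 in parental cells. Both were below log2 5 on every array and were not tested. ABCC11 and ABCC12 of the same group also missed the filter. The other genes below the filter were ABCB4, ABCG5, ABCA6, ABCA8, ABCA9, ABCA12, ABCA13, ABCC9, ABCD2, ABCC13 and ABCA17P. Array values of these 15 genes ran from 2.93 to 5.05, and the means of the 5 lines differed by 0.057 to 0.561 per gene.

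Of the 6 genes of cholesterol and phospholipid export, 5 were tested and 1 was lower in the tumours. ABCA1 (chromosome 9, 104781006 to 104928155), which loads cholesterol onto apolipoprotein A-I, was at 8.19 and 8.39 in T2, 7.67 and 7.71 in T3, 8.65 and 8.24 in T6, 8.01 and 7.83 in T8, and 8.93 and 8.37 in parental cells. T3 and T8 lay below every array of the other lines, while T2 and T6 overlapped the parental arrays. The 4 tumours together differed from parental cells by -0.57 ± 0.13 (adjusted p = 0.00212), T3 by -0.96 ± 0.16 and T8 by -0.73 ± 0.16. Without parental replicate 1 the difference was -0.29 and the call was lost. A second probe set differed by -0.80.

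ABCG1, which passes cholesterol to high-density lipoprotein, was near the filter, with levels of 5.41 and 5.49 in T2, 5.22 and 4.89 in T3, 5.12 and 5.08 in T6, 4.75 and 5.05 in T8, and 5.20 and 5.35 in parental cells. Its difference of -0.15 between the tumours and parental cells was not called. ABCA7, ABCG4 and ABCG8 differed by -0.05 to -0.02, also without a call.

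Among the other tested ABCA genes, 2 were lower and 1 was higher. ABCA2, which acts in lipid and sterol traffic of late endosomes, was at 6.75 and 6.74 in T2, 6.27 and 6.28 in T3, 6.52 and 6.52 in T6, 6.72 and 6.57 in T8, and 7.21 and 7.06 in parental cells. Every tumour array was below both parental arrays, T3 lowest (mean difference -0.59 ± 0.09, adjusted p = 6.43e-05), and each tumour alone passed the test. Its other 2 probe sets differed by -0.18 and -0.24, neither called.

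ABCA3, the lipid pump of lung surfactant, was at 6.77 and 6.61 in T2, 6.65 and 6.82 in T3, 6.65 and 6.65 in T6, 6.82 and 6.83 in T8, and 6.99 and 7.19 in parental cells. All tumour arrays were below both parental arrays (-0.36 ± 0.09, adjusted p = 0.00463), and without parental replicate 2 the call was lost at -0.26. ABCA5, a lysosomal and late endosomal member, was at 6.09 and 6.40 in T2, 6.09 and 6.19 in T3, 6.39 and 6.18 in T6, 6.24 and 5.99 in T8, and 5.81 and 5.90 in parental cells. All tumour arrays were higher (0.34 ± 0.11, adjusted p = 0.0204), but the call was lost without either parental array and when the probe sets of the gene were averaged (0.12). The other probe set in that average was at 3.80 over the arrays and did not reach the filter. ABCA4, the retinoid transporter of photoreceptors, did not pass in the tumours together (0.20) and passed in T6 alone (0.40 ± 0.15, adjusted p = 0.0474).

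Of the 5 ABCB genes that the lists placed outside the drug and bile groups, ABCB6 alone was called in the tumours together. The place of ABCB5 in the cell and what it carries were not examined here. ABCB6, a porphyrin transporter, was at 7.38 and 7.70 in T2, 6.89 and 7.12 in T3, 7.45 and 7.37 in T6, 7.46 and 7.29 in T8, and 7.04 and 7.04 in parental cells. T2, T6 and T8 were above parental cells and T3 was on either side of them (0.29 ± 0.10 over the 4 tumours, adjusted p = 0.0245). The call was lost without either parental array and when probe sets were averaged (0.10). The other probe set in that average was at 4.69 over the arrays and did not reach the filter. ABCB10, of the inner mitochondrial membrane, was at 9.06 and 9.20 in T2, 8.71 and 8.91 in T3, 9.15 and 9.11 in T6, 8.98 and 8.84 in T8, and 9.08 and 9.05 in parental cells. It was lower in T3 than in parental cells (-0.26 ± 0.09, adjusted p = 0.0319). ABCB5 was called in T6 only among the single tumours (-0.41 ± 0.15, adjusted p = 0.0405), which was not a test of a difference between tumours. Its other probe sets averaged 3.47, 3.25 and 3.99 over the arrays and did not reach the filter.

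ABCD4, which works in lysosomal release of cobalamin, was at 8.92 and 8.96 in T2, 8.93 and 8.997 in T3, 8.91 and 8.83 in T6, 9.20 and 9.15 in T8, and 8.70 and 8.66 in parental cells. Every tumour array was above both parental arrays (0.30 ± 0.06, adjusted p = 0.000833). Its other probe set lay the other way (-0.26, not called), and averaged over probe sets the difference was 0.02. That other probe set averaged 4.87 over the arrays, around the filter, against 8.93 for the one used. ABCD3, a peroxisomal fatty acid transporter, differed by 0.00 on the probe set used, while its other probe set was higher in the tumours by 0.48 (adjusted p = 0.00187). ABCB8, of mitochondria, likewise differed by 0.03 on the probe set used and by -0.29 (adjusted p = 0.0258) on the other. ABCC8, ABCB11 and ABCA11P were not called.

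**Figure D2:**
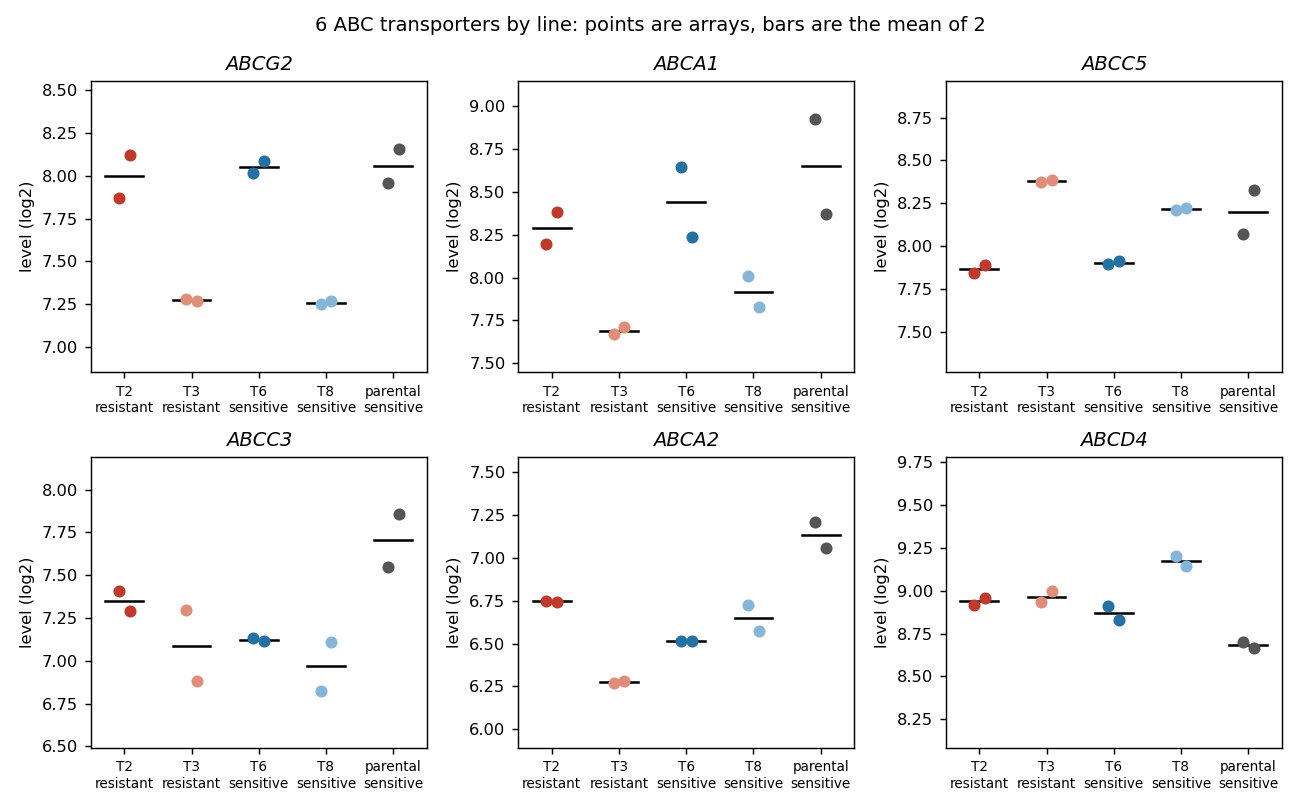
Points are the 10 arrays and bars the mean of 2 arrays per line on the log2 scale, for 6 genes with a vertical axis per gene. ABCG2 and ABCA1 are low in T3 and T8 and ABCC5 is low in T2 and T6, whereas ABCC3, ABCA2 and ABCD4 place the 4 tumours on one side of parental cells.

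The response label separated few members. With the tumour as the replicate, 0 of the 25 members and 0.00% of all genes passed in T2 and T3 minus T6 and T8, and the smallest adjusted p of any gene was 0.894. At an unadjusted p under 0.05, 2 members and 661 genes passed. Over arrays, which tests these particular tumours and not the label in general, 1 member passed, lower, against 19.0% of all genes, 4.76% higher and 14.2% lower. At an unadjusted p under 0.05 there were 5 members and 5109 of the 14929 genes, a larger share of the genes than of the members. Without T2 replicate 1 the members called over arrays numbered 3 of 25, and the genes 1978 of 14833.

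That member was ABCB9, the lysosomal peptide transporter, at 6.36 and 6.54 in T2, 6.60 and 6.39 in T3, 6.98 and 6.85 in T6, 6.77 and 6.82 in T8, and 6.48 and 6.46 in parental cells. The resistant arrays were all below the sensitive tumour arrays and on either side of the parental arrays, which are also labelled sensitive (-0.38 ± 0.08, adjusted p = 0.006). Set against parental cells, T6 (0.44 ± 0.12) and T8 (0.32 ± 0.12) were higher. A second probe set was lower too (-0.35 ± 0.10), but the remaining one differed by 0.12 ± 0.10 and was not called, and the difference turned to 0.12 when probe sets whose names mark probes shared between transcripts were left out. For the drug exporters the difference by label was -0.02 for ABCG2 (95% interval -0.18 to 0.14), 0.07 for ABCC1 (-0.06 to 0.19), -0.13 for ABCC4 (-0.28 to 0.02), 0.06 for ABCC5 (-0.08 to 0.20), 0.17 for ABCC3 (-0.05 to 0.39) and 0.17 for ABCC10 (0.02 to 0.32). None of these 6 was called. The interval of ABCC10 alone left out 0, at an unadjusted p of 0.0263 and an adjusted p of 0.0972. ABCB5, which was listed outside this group, differed by 0.22 (-0.001 to 0.44) on its only probe set that reached the filter. It was not called (adjusted p = 0.148).

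**Figure D3:**
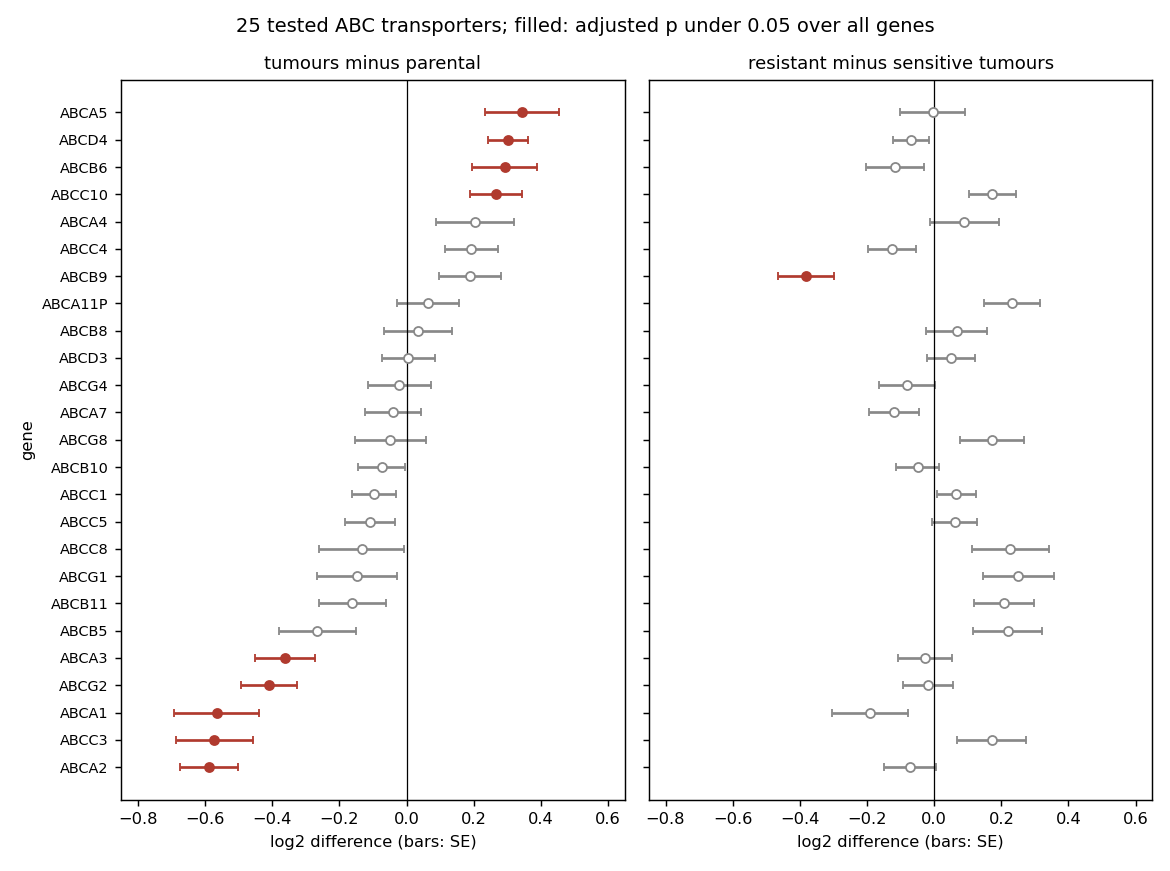
Points give the log2 difference of each of the 25 tested genes and bars its SE, over arrays, for the 4 tumours minus parental cells (left) and for resistant minus sensitive tumours (right), with filled red points at an adjusted p under 0.05. On the left 9 genes are filled, from ABCA2 at -0.59 to ABCA5 at 0.34, and on the right ABCB9 alone at -0.38.

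The tumours were also compared among themselves, first all 4 in an F-test that includes the difference between labels, then within each label. The F-test passed for 10 of the 25 members (40%), near the 41.7% of all genes. They were ABCG2 (adjusted p = 1.48e-05), ABCC5, ABCA1, ABCB9, ABCA2, ABCB6, ABCB10, ABCD4, ABCC1 and ABCG1. Of these, ABCB9 and ABCG1 were called in neither pair of equal label. ABCC1 passed in 8 of 18 alternative settings (adjusted p up to 0.265) and ABCG1 in 8 of 15 (up to 0.175). T2 minus T3, both labelled resistant, had 7 members called, 6 higher and 1 lower (30.8% of all genes, 13.9% higher and 16.9% lower). T6 minus T8, both labelled sensitive, had 5, 3 higher and 2 lower (15.1%, 4.66% higher and 10.4% lower). These 2 comparisons share no array. They were added after the levels had been seen.

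ABCG2 was higher in T2 than in T3 by 0.72 ± 0.11 (adjusted p = 8.77e-05) and in T6 than in T8 by 0.79 ± 0.11 (adjusted p = 0.000223), from the array values above. This is 1.65-fold and 1.73-fold. ABCA1 ran the same way, by 0.60 ± 0.16 (adjusted p = 0.00914) and 0.53 ± 0.16 (adjusted p = 0.0383), and its second probe set by 0.83 and 0.89. The ABCA1 call between T6 and T8 was lost without T6 replicate 1 (0.32) or either T8 array (0.62 and 0.44), and that between T2 and T3 without T2 replicate 2 (0.50) or T3 replicate 1 (0.58). The call between T6 and T8 was lost in 7 of 18 settings, also with arrays centred on the median (0.49), with no trend, and without either T3 array, the last 3 at an unchanged difference.

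ABCC5 (chromosome 3, 183919934 to 184017884) ran opposite to both. Its level was 7.84 and 7.89 in T2, 8.37 and 8.38 in T3, 7.89 and 7.91 in T6, 8.21 and 8.22 in T8, and 8.07 and 8.33 in parental cells. T2 and T6 were below all arrays of T3 and T8 and of parental cells, and their differences from parental cells were -0.33 ± 0.09 (T2) and -0.30 ± 0.09 (T6), both called. The difference was -0.51 ± 0.09 for T2 minus T3 (adjusted p = 0.000681) and -0.31 ± 0.09 for T6 minus T8 (adjusted p = 0.0372). Its other 2 probe sets were not called in either pair (-0.20 and -0.16 for T2 minus T3, 0.13 and -0.18 for T6 minus T8), and the call between T6 and T8 was lost in 9 of 18 settings. These were leaving out any 1 array of T6 or T8 (-0.32 to -0.30), repeated quantile normalisation (-0.28), centring (-0.35), averaging probe sets (-0.12), leaving out the shared-probe sets (-0.18) and no trend. Leaving out the shared-probe sets also ended its call between T2 and T3 (-0.16).

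ABCB6 (0.53 ± 0.12), ABCA2 (0.47 ± 0.11), ABCB10 (0.32 ± 0.09) and ABCC1 (0.30 ± 0.08) were higher in T2 than in T3 and were not called between T6 and T8. ABCC3 was called in neither pair on the probe set used (0.26 and 0.15). Another of its probe sets was called in both, at 0.60 (adjusted p = 0.00508) for T2 minus T3 and 0.51 (adjusted p = 0.0308) for T6 minus T8. One more was called in T2 minus T3 only (0.61), and the rest in neither. ABCA4, at 6.73 and 6.77 in T6 and 6.37 and 6.16 in T8, was higher in T6 (0.49 ± 0.15, adjusted p = 0.0379), and ABCD4 was lower in T6 (-0.31 ± 0.08, adjusted p = 0.013). Without any 1 array of T6 or T8, the calls of ABCA4 (0.38 to 0.59) and ABCD4 (-0.35 to -0.27) were lost; those of ABCB10 and ABCC1 were lost without T2 replicate 2 (0.25 and 0.23) or T3 replicate 1 (0.22 and 0.20). Averaging probe sets ended the T2 minus T3 calls of ABCA2 (0.19) and ABCB6 (0.10). It also ended the T6 minus T8 call of ABCD4 (-0.04), whose other probe set lay the other way (0.23, not called). The other probe sets of ABCB6 (4.69 on average) and ABCD4 (4.87) lay below or around the filter. Whether the pairs differed from each other in these genes was not tested. Over the 25 members the 2 sets of differences correlated at Pearson r = 0.64 (Spearman rho = 0.55) and shared their sign in 17 (68%), against r = 0.60 (rho = 0.50) and 65.8% over all tested genes. These are correlations over genes, which are not independent replicates. Calls in both pairs with the same sign were made for 3 of the 25 members and 1494 of the 14929 genes. Those with opposite signs were 0 and 78. The share of members was near that of all genes, so the 3 calls are not a result about the transporters as a family.

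**Figure D4:**
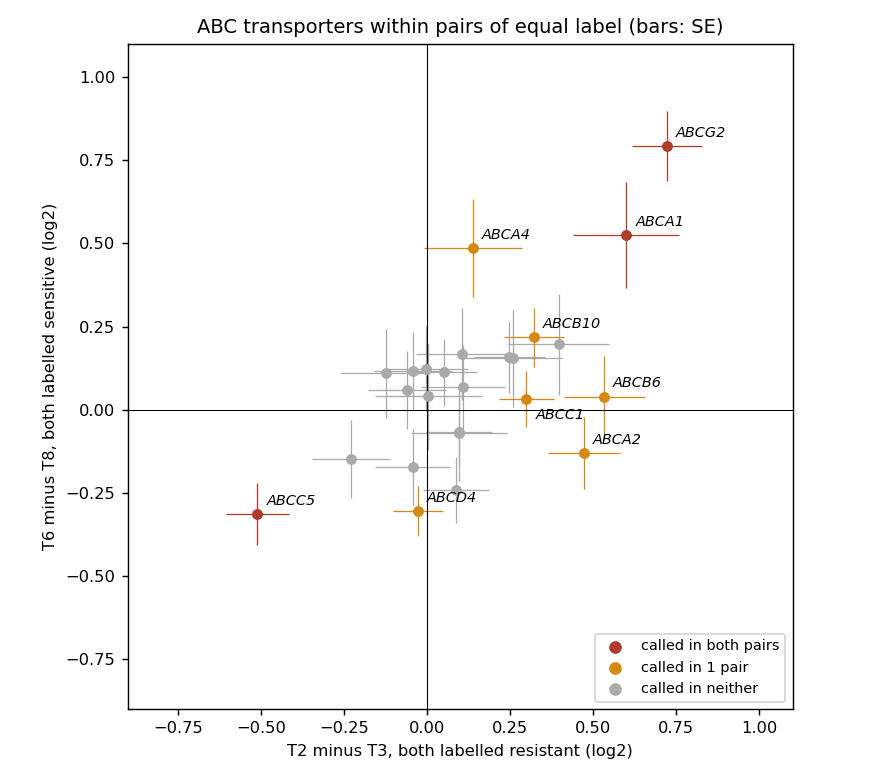
Each point is 1 of the 25 tested genes, with its log2 difference T2 minus T3 on the horizontal axis and T6 minus T8 on the vertical axis and bars for the SE. ABCG2 and ABCA1 lie at the upper right and ABCC5 at the lower left, the 3 genes called in both pairs (red). Of all 14929 tested genes, 1494 were called in both pairs with the same sign.

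Genes that work with these transporters were read in the same fit of the tumours minus parental cells, in which 25.5% of all genes were higher and 16.8% lower. Shares near these, as in the small lists with a few calls each way, are not results about a list. Of 6 tested ABC proteins outside the rule, 4 were lower and 0 higher, among them the peptide transporter of antigen presentation TAP1 (-0.40 ± 0.05), and ABCF3 (-0.30 ± 0.07) and ABCF2 (-0.20 ± 0.06), which have no membrane part. Of 14 tested genes of the liver X receptor axis and cholesterol traffic, which regulates ABCA1 and ABCG1, 4 were higher and 3 lower. The cholesterol carrier STARD4 was higher by 1.002 ± 0.086 and the phospholipid transfer protein PLTP by 0.67 ± 0.09, and RXRA, the receptor partner, was lower (-0.59 ± 0.06). Of 4 tested xenobiotic regulators, NFE2L2 was lower (-0.31 ± 0.07) and none was higher.

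Of 17 genes of glutathione synthesis and conjugation, which supplies substrates of the ABCC pumps, 5 were higher and 7 lower. The cystine carrier SLC7A11 was higher by 0.81 ± 0.06, while the transferases GSTK1 (-0.88 ± 0.06) and GSTM3 (-0.78 ± 0.05) were lower. Of 12 tested haem and iron-sulphur genes, 7 were higher and 2 lower, with ALAS1 (0.43 ± 0.05) and ALAD (0.43 ± 0.10), early enzymes of haem synthesis, higher and CPOX (-0.63 ± 0.10), a late one, lower. Of 9 tested peroxisomal partners, 5 were higher and 0 lower, among them the beta-oxidation enzymes HSD17B4 (0.51 ± 0.06) and EHHADH (0.39 ± 0.13) and the import factor PEX3 (0.42 ± 0.07). EHHADH averaged 4.72 in parental cells and met the filter through the tumour arrays, where it was high, so its call is not a result, and 4 were higher without it.

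Of 5 cobalamin genes that serve the pathway of ABCD4, 3 were higher and 0 lower, namely the uptake receptor CD320 (0.56 ± 0.05), MMADHC (0.20 ± 0.06) and MMACHC (0.20 ± 0.07). KCNJ8, a potassium channel pore that pairs with ABCC9, was higher (0.64 ± 0.10) and KCNJ11 was not called. Of 10 tested drug carriers outside the ABC family, with uptake and export not told apart, 1 was higher and 3 lower. SLCO1B3 was higher by 2.01 ± 0.10, at mean levels of 10.15 (T2), 9.47 (T3), 9.57 (T6), 9.46 (T8) and 7.65 (parental), and SLC47A1 (-1.03 ± 0.12) and SLCO3A1 (-0.96 ± 0.09) were lower. The medians of the lists ran from -0.19 for the other ABC proteins to 0.33 for the peroxisomal partners, against 0.00 over all tested genes.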

How the data were processed

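Expression was deposited by the authors as log2 levels of 54675 probe sets on each array, made with affy and RMA (limma is named too, all without versions) per the submitters' processing notes. Arrays carry no read depth, and precision is limited by their number and by signal over background. The platform annotation gave the gene of a probe set; 62 controls were left out, and of the rest 41091 had 1 gene, 1801 several and 11721 none. For 41037 the symbol was checked by Entrez number against the RefSeq table of GRCh38.p14, which also gave coordinates. The probe set with the highest mean stood for its gene, and 14929 of 19775 genes with log2 5 on at least 2 arrays were tested.

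limma 3.58.1 under R 4.3.3 (lmFit, eBayes with a trend) was fitted to all tested genes with 1 coefficient per line over 10 arrays (5 residual degrees of freedom, prior 9.39). The response was also fitted on line means with the tumour as replicate (2 residual degrees of freedom, prior 2.73). A gene was called at a two-sided Benjamini-Hochberg adjusted p under 0.05 over all tested genes. The fit was tested on simulated data. Other probe sets of a member were tested in a fit over all genes' probe sets. Alternatives were another normalisation, centring, filter, probe set choice, fit, and leaving out each array.

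Named members were 9 fixed genes and those called in the tumours against parental cells or among tumours; of each companion list, up to 3 called genes with the largest change were named. ABCA4, ABCB5, ABCB8 and ABCD3, the genes plotted singly, the promoters and the comparisons T2 minus T3 and T6 minus T8 were chosen after their values were seen. Members and lists were chosen with earlier results of these data known.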

Additional observations from a re-analysis of the deposited data

Results flagged for a closer look

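Differences between tumours of the same response label passed the test for 7 of 25 members in T2 minus T3 (28%, against 30.8% of all genes) and for 5 in T6 minus T8 (20%, against 15.1%). In T2 minus T3, both labelled resistant, the log2 differences were 0.72 for ABCG2, 0.60 for ABCA1, 0.53 for ABCB6, 0.47 for ABCA2, 0.32 for ABCB10, 0.30 for ABCC1 and -0.51 for ABCC5. In T6 minus T8, both labelled sensitive, they were 0.79 for ABCG2, 0.53 for ABCA1, 0.49 for ABCA4, -0.31 for ABCC5 and -0.31 for ABCD4. The cause of these differences was not tested.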

How the results depend on the processing

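The 2 arrays per line limit every count, and 15 members lay too near background to be tested. ABCG2 kept its direction and its call in tumours minus parental, T2 minus T3 and T6 minus T8 under each alternative run, and ABCC3 in tumours minus parental. ABCG2 has 1 probe set only, which is neither an x nor an s set. Averaging probe sets and leaving out x and s probe sets therefore could not change its level, and these runs do not test it. Without x and s probe sets, ABCB9 in resistant minus sensitive turned to 0.12; without parental replicate 2, ABCC5 in tumours minus parental was 0.0193 (and -0.24 without parental replicate 1), called in neither fit. Members with any difference among tumours numbered 6 with arrays centred on the median (5040 genes of 14894) and 5 without x and s probe sets (4413 of 11885). In the main fit they numbered 10 (6228 of 14929). Resistant minus sensitive over arrays gave 4 members (2987 genes) after repeated quantile normalisation, 2 (2707) with no filter and 3 (2437) with the mean over probe sets. It gave 2 (2223) with no trend and 0 (4) with the line as a random block (consensus correlation 0.508), against 1 (2837). With the mean over probe sets, T2 minus parental gave 4 members, T6 minus parental 4 and T6 minus T8 2. Without x and s probe sets, T2 minus T3 gave 4, T3 minus parental 4, T6 minus parental 5 and T6 minus T8 3. T6 minus T8 gave 2 centred on the median and 2 with no trend. Genes called in T6 minus T8 numbered 1376 centred and 1588 with no trend, against 2253. They numbered 1752 with the mean over probe sets and 1492 without x and s probe sets. In the other fits of this list fewer genes were called too. Tumours minus parental gave 11 members (6 higher, 5 lower) centred, 11 (4 higher, 7 lower) after quantile normalisation and 8 (2 higher, 6 lower) without x and s probe sets. Genes called in these fits numbered 5687, 6769 and 4584 in that order, the last of 11885 tested, against 6314. The cause of these shifts was not tested, except that the last setting tests fewer members (19). Leaving out each array gave 5 to 10 in tumours minus parental, 2 to 8 for T2, 5 to 10 for T3, 2 to 9 for T6 and 5 to 9 for T8 minus parental, 1 to 3 in resistant minus sensitive over arrays, 0 to 0 with the tumour as replicate, 6 to 12 among tumours, 5 to 7 in T2 minus T3 and 1 to 5 in T6 minus T8. Counts moved by over 1.5 times without parental replicate 2 (T2 4, T3 5, T6 3 and T8 5 minus parental), T2 replicate 2 (T2 minus parental 2), T6 replicate 1 and 2 (T6 minus parental 2 and 4; T6 minus T8 1 and 2), T8 replicate 1 (T8 minus parental 5), either T8 array (T6 minus T8 1), and T3 replicate 1 or T6 replicate 1 (among tumours 6). Replicate numbers were not taken as pairing the samples, since same-numbered arrays did not deviate together in every pair of lines. Their deviations correlated at 0.50 between T2 and T3 and at 0.15 to 0.31 among T6, T8 and parental cells, but at -0.39 to -0.14 across these sets. With the replicate block, tumours minus parental gave 9, resistant minus sensitive over arrays 1, T8 minus parental 6, T2 minus T3 7 and T6 minus T8 5. No share of all genes is set beside the counts without an array, since those fits leave 1 array in a line. A shift of the members apart from that of all genes cannot be read from those counts.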

Other observations

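With no filter on low values, 4 of the 15 members that missed the filter passed the test in at least 1 of several comparisons. In that setting 6392 of 19775 genes passed in the tumours together and 2707 in resistant minus sensitive over arrays. Against parental cells, 4854 genes passed in T2, 5583 in T3, 5093 in T6 and 6614 in T8. The count of 4 pools these comparisons and is not a result about the members as a set. ABCA8 was lower in the tumours together (-0.36 ± 0.10, adjusted p = 0.0103), and ABCC11 was higher in resistant than in sensitive tumours over arrays (0.40 ± 0.09, adjusted p = 0.00672). ABCC11 averaged 4.97 in T2 and 4.95 in T3, 4.55 in T6 and 4.57 in T8, against 4.91 in parental cells, which are also labelled sensitive, and it was lower than parental cells in T6 (-0.36) and T8 (-0.35). ABCC13 was higher in T3 than in parental cells (0.33 ± 0.12) and ABCA17P was lower in T2 (-0.45 ± 0.14). A probe set shared by ABCB4 and ABCB1 lay between 3.87 and 4.36 on the 10 arrays, and one shared by ABCB8 and ASIC3 averaged between 4.33 (T3) and 4.70 (T8) in the tumours, against 5.003 in parental cells.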
